A study of Mus musculus with 24 samples.

Results

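The question here was whether 31 days on the International Space Station changed bone marrow gene expression differently in mice with and without Nrf2. For each gene the flight effect in Nrf2-KO mice (FL-KO minus GC-KO) was compared with the flight effect in wild-type mice (FL-WT minus GC-WT), and the difference between the 2 effects is called the interaction. A negative interaction means that the gene ended lower, relative to the ground mice of its own genotype, in flown KO mice than in flown WT mice. All 24 libraries of the series entered the comparison, and 12373 of the 54752 annotated genes, those above 1 TPM in at least 1 library (TPM scales each library's transcripts to a fixed total), were tested.

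The animals were male C57BL/6 mice bred at Charles River Laboratories Japan, and the flight animals were aged 8 weeks when shipped. There were 6 wild-type mice kept on the ground (GC-WT), 6 wild-type mice flown (FL-WT), 6 mice lacking Nrf2 kept on the ground (GC-KO) and 6 knockout mice flown (FL-KO). Flown mice were sampled 2 days after return. Whole bone marrow cells were frozen and total RNA was sequenced from the frozen cells. Ground mice were housed under matched conditions in Japan and flown mice were handled in the United States, so flight and site cannot be told apart within either genotype. Each library holds the marrow of 1 mouse, in which fewer cells of a type and less RNA per cell cannot be told apart.

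Nrf2, encoded by Nfe2l2, is a transcription factor that Keap1 holds back by steering it to degradation. Oxidative or electrophilic stress releases it, and it then pairs with small Maf proteins at antioxidant response elements and turns on genes for glutathione synthesis, NADPH supply and detoxification. Bone marrow makes red cells, granulocytes, monocytes, platelets and B cells from a small pool of stem cells, so its RNA is a mixture of these lineages at many stages.

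In outline, the flight effects of the 2 genotypes were close for most genes, and only 2 genes passed the test of the interaction. These were Gm26917, a noncoding transcript of the ribosomal RNA-like locus on chromosome 17, and the histone gene Hist1h2ap, both lower. Among lists of at least 5 genes, the H2A and H3 histone classes, which were put together after the values had been seen, and the list led by eosinophil granule genes had the lowest median interactions. Genes of the red cell membrane had strong negative flight effects of similar size in both genotypes, whereas globin genes had flight effects near 0.

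The upstream sequences of the genes that stood out are shown first, because several of these genes share their regulatory sequence with a neighbour or a near-identical copy. RefSeq sequences of build GRCm38.p6 were used. Replication-dependent histone genes lie in clusters in which an H2A and an H2B gene are often read outward from 1 shared stretch. The first sequence is the whole 248-base stretch between the starts of Hist1h2ag, named H2ac11 by RefSeq, and Hist1h2bj, named H2bc11, at chr13:22042950-22043197, printed on the minus strand, so that it starts beside Hist1h2bj and ends beside Hist1h2ag. The second is the 120 bases before the RefSeq start of Hist1h2ap, named H2ac24 by RefSeq, at chr13:21833476-21833595 on the minus strand. GENCODE places the start of this gene at 21833507, so by that annotation the last printed bases lie inside it. Capitals mark CCAAT on either strand, the box that factor NF-Y is known to bind.
Hist1h2ag to Hist1h2bj: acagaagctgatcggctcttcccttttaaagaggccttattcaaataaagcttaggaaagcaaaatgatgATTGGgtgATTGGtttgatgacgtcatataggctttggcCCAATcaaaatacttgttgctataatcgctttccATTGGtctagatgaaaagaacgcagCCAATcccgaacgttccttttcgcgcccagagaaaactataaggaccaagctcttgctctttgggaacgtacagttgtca
Hist1h2ap: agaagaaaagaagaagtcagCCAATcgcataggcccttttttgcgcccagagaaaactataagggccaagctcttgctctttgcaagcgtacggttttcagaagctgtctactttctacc

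The third set is the 120 bases before the starts of Ear1, Ear2 and Ear6, which encode eosinophil-associated ribonucleases, secreted granule enzymes of eosinophils. They lie at chr14:43819640-43819759 on the minus strand, chr14:44102534-44102653 on the plus strand and chr14:51853648-51853767 on the plus strand. Capitals mark the longest run common to all 3, of 30 bases. Ear1 and Ear2 share an unbroken run of 197 of the 250 bases before their starts, and the authors' read assignment could split reads between such close copies.
Ear1: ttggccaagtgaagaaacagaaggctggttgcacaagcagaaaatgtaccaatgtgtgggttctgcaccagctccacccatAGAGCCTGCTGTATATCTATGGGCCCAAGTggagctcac
Ear2: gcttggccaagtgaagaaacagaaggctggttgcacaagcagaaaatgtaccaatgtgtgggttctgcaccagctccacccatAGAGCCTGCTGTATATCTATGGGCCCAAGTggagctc
Ear6: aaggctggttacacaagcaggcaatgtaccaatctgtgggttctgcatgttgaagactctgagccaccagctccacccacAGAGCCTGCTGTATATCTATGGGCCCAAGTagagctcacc

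The genotype labels were checked first. Nfe2l2 had 17.1 to 26.1 TPM in GC-WT mice (median 21.4), 11.4 to 27.3 in FL-WT mice (median 19.2), 3.6 to 7.18 in GC-KO mice (median 4.89) and 2.22 to 4.31 in FL-KO mice (median 3.10). Every KO mouse was below every WT mouse. The log2 interaction of Nfe2l2 was -0.32 ± 0.25 (SE), with an unadjusted p of 0.203 from limma. The TPM of a gene are summed over all its exons, so the level in KO mice does not show which exons were read.

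Over all 12373 genes the interaction was on the log2(TPM + 1) scale, where limma moderated each gene's spread over the 24 mice. The middle 95% of genes had interactions between -0.54 and 0.28, with a median of -0.06 and a median SE of 0.20. For 11622 genes (93.9%) the 95% interval lay within a 2-fold difference in either direction. A gene was called where the Benjamini-Hochberg adjusted p was below 0.1 and the interaction at least 2-fold, the thresholds the study used. By this rule 2 genes (0.0162%) were called lower and 0 higher by limma. At an unadjusted p below 0.05, 375 genes (3.03%) were lower and 53 (0.428%) higher. The lower count was 821 without FL-WT mouse 05, 216 without FL-WT mouse 07, 222 without FL-WT mouse 08, 229 without GC-KO mouse 11, 243 without GC-KO mouse 12 and 240 without FL-KO mouse 02. The higher count was 95 without GC-WT mouse 03 or FL-WT mouse 07, and 85 without GC-KO mouse 11. Without any test, 8143 genes (65.8%) were below 0.

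This imbalance moved with the scaling. TPM are shares of a fixed total, and 5 small structural RNAs (Rn7s1, Rn7s2, Rn7sk, Rpph1 and Rmrp) took much of it. Their summed share was 41 to 58.2% in GC-WT, 40.1 to 59.6% in FL-WT, 35.4 to 48.4% in GC-KO mice and 46.1 to 59.3% in FL-KO mice. It differed with flight by -0.804 percentage points in WT mice (exact two-sided rank-sum permutation test, p = 0.818) and by 6.5 points in KO mice (p = 0.0152). When TPM were rescaled without these RNAs, the median interaction moved from -0.06 to 0.095. The unadjusted split moved from 375 lower and 53 higher to 175 lower and 624 higher, and no gene was called by limma. The split was 946 and 362 after scaling by median of ratios, 663 and 588 after quantile normalization, and 659 and 535 with GC content and length trends removed. It was 187 and 68 on untransformed TPM. Counts of list members below 0 are given below in TPM as deposited, where 65.8% of all genes were below 0, and they move with the scaling. Without the small RNAs, the list medians of the haem synthesis and mature neutrophil genes, for example, were 0.03 and 0.02. Each list's median is therefore to be read against that of all genes. Read so, many list medians stayed below 0 under the 4 other scalings. Among these were the H1, H2A, H2B and H3 histone, eosinophil, stefin A, homing, granule and erythroid transcription factor lists. The replication, globin, haem synthesis, monocyte, tissue macrophage, mature neutrophil, phagocyte oxidase, interferon, NF-kB, mitochondrial and plasma cell lists did so too. So did the stroma list and those of Nrf2 targets and regulators. That of haem synthesis was -0.015 with quantile normalization. The B cell progenitor, heat shock, ATF4, stem and progenitor, p53, glucocorticoid, megakaryocyte and Apol11 medians stayed above 0. Those of the red cell membrane, iron uptake, MHC class II, T and NK cell, SWI/SNF, clock and H4 lists changed sign under at least 1 scaling.

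**Figure D1:**
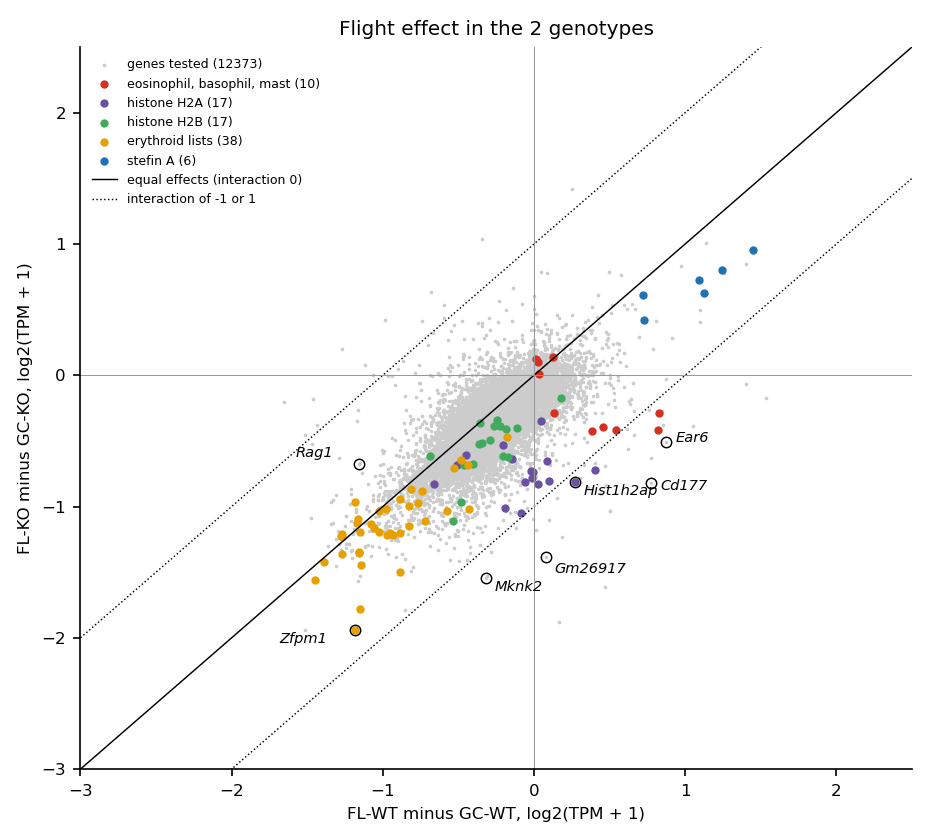
Flight effect in WT mice (horizontal axis, FL-WT minus GC-WT) against that in KO mice (vertical axis, FL-KO minus GC-KO), both in log2(TPM + 1), for 12373 genes, of which 5 lie outside the axes. The solid line marks equal effects and the dotted lines an interaction of 1 in either direction. The H2A histone genes (purple) and the eosinophil granule genes (red points at the lower right) sit below the line of equal effects, whereas most erythroid genes (orange) lie near it at the lower left.

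The genes called in each genotype separately can be set beside the interaction. Flight lowered 116 genes (0.938%) in WT mice and 264 (2.13%) in KO mice by the same thresholds. Of these, 186 were called lower in KO mice and not in WT mice. The interaction was past an unadjusted p of 0.05 for 66 of the 186 and was called for 1 of them, Gm26917. In the other direction, 38 genes were called lower in WT mice alone and 5 of them were past an unadjusted interaction p of 0.05. These counts share the contrasts of the interaction and describe it only. In all, 10379 genes were lower after flight in both genotypes in direction, 1175 were higher in WT and lower in KO mice, and 297 were the opposite. Of the 375 genes at an unadjusted p below 0.05 with a negative interaction, 178 were of the kind that was higher after flight in WT and lower in KO mice, and 188 were lower in both and more so in KO mice.

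Gm26917 is annotated as a long intergenic noncoding RNA at chr17:39843013-39846341 (GRCm38, plus strand), in a stretch that carries sequence of the ribosomal RNA precursor. It had 7742 to 14280 TPM in GC-WT mice (median 11240), 8522 to 16910 in FL-WT mice (median 11440), 5748 to 9413 in GC-KO mice (median 7750) and 2349 to 4569 in FL-KO mice (median 2766). All 6 FL-KO mice were below all 18 other mice, and the other 3 groups overlapped. The flight effect was 0.08 in WT mice and -1.39 in KO mice. The interaction was -1.46 ± 0.25 (SE; 95% interval -1.98 to -0.94; limma adjusted p = 0.0475).

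Gm42418, the next gene along at chr17:39846958-39848788, had 3498 to 6554 TPM in GC-WT mice (median 5488), 4601 to 7810 in FL-WT mice (median 5732), 3786 to 5131 in GC-KO mice (median 4416) and 2157 to 3473 in FL-KO mice (median 2812). Its interaction was -0.87 ± 0.22 (unadjusted p = 0.000482), which did not pass after adjustment (limma adjusted p = 0.398).  Together they took 0.451 to 0.804% of TPM in FL-KO mice, 0.953 to 1.45% in GC-KO, 1.12 to 2.08% in GC-WT and 1.31 to 2.47% in FL-WT mice. In flight against ground this share gave p = 0.699 in WT and p = 0.00216 in KO mice (exact two-sided rank-sum permutation test). The KO flight difference minus that of WT mice was -0.787 percentage points, which was not tested. The part of total RNA composition in these values was not tested either.

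Hist1h2ap encodes a replication-dependent histone H2A, made in S phase to package new DNA, at chr13:21833026-21833507 on the minus strand. It had 2127 to 3847 TPM in GC-WT mice (median 2742), 2531 to 4008 in FL-WT mice (median 3814), 2628 to 3299 in GC-KO mice (median 2797) and 1238 to 1923 in FL-KO mice (median 1662). All FL-KO mice were again below all other mice. The flight effect was 0.27 in WT and -0.81 in KO mice, and the interaction was -1.08 ± 0.20 (95% interval -1.50 to -0.67; limma adjusted p = 0.0746). Both calls depended on single libraries. Leaving out 1 mouse at a time gave adjusted p-values between 0.00687 and 0.154 for Gm26917, and between 0.0225 and 0.215 for Hist1h2ap, with interactions from -1.59 to -1.35 and from -1.173 to -1.002. Gm26917 was no longer called without GC-WT mouse 03 or 05, FL-WT mouse 06, 07 or 08, GC-KO mouse 01, 02 or 11, or FL-KO mouse 04 or 12. Hist1h2ap was no longer called without these mice, GC-WT mouse 07, FL-WT mouse 10, GC-KO mouse 09 or FL-KO mouse 02.

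The other H2A genes had negative interactions too, and none of them passed the test. The histone classes were assembled after the values had been seen, so their counts are a description. Of 17 tested H2A genes all 17 were below 0, with a median interaction of -0.74 beside -0.06 over all genes, and 12 were past an unadjusted p of 0.05 (3.03% of all genes were so and lower). Hist1h2ag had 1196 to 1756 TPM in GC-WT mice (median 1527), 1223 to 2106 in FL-WT mice (median 1673), 1670 to 2014 in GC-KO mice (median 1871) and 842 to 1240 in FL-KO mice (median 1054). Its interaction was -0.90 ± 0.19 (limma adjusted p = 0.138). Those of Hist1h2af and Hist1h2ab were -0.85 and -0.96 (limma adjusted p = 0.230 and 0.234). The least negative were Hist2h2aa2 (-0.16), Hist3h2a (-0.16) and Hist2h2aa1 (-0.18), which lie outside the large chromosome 13 cluster.

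The histone classes differed in size. Over all genes, 65.8% were below 0 and 3.03% were past an unadjusted p of 0.05 and lower. Of 12 H3 genes 11 were below 0 (median -0.58) and 10 were past an unadjusted p of 0.05, among them Hist1h3d (-0.89). All 6 linker histone H1 genes were below 0 (median -0.46), with 3 past an unadjusted p of 0.05. For 17 H2B genes the median was -0.22 with 4 past it, and for 13 H4 genes it was -0.14 with 1. Read against the median gene, the H2A median was -0.68 in TPM as deposited and between -0.64 and -0.53 under the 4 other scalings. That of H4 was -0.09, and 0.16 with quantile normalization. Histone genes together took 6.83 ± 1.10% of TPM in GC-WT mice (SD, n = 6), 6.12 ± 1.09% in FL-WT mice, 7.43 ± 0.566% in GC-KO mice and 4.95 ± 0.591% in FL-KO mice. The difference with flight gave p = 0.240 in WT mice and p = 0.00216 in KO mice (exact two-sided rank-sum permutation test, where 0.00216 is the smallest p that 6 against 6 can give). The KO flight difference minus that of WT mice was -1.77 percentage points, which was not tested.

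H2A and H2B genes that are read outward from 1 stretch of DNA were also set side by side. There were 11 such pairs with starts 176 to 302 bases apart, 10 of them on chromosome 13. In 11 of 11 the H2A gene had the lower interaction, by 0.23 to 0.90 on the log2 scale. The pair whose shared sequence is printed above had -0.90 for Hist1h2ag and -0.17 for Hist1h2bj. For Hist1h2ac and Hist1h2bc the values were -0.74 and -0.01. Across the 11 pairs the median flight effect in WT mice was -0.01 for H2A and -0.36 for H2B, and in KO mice it was -0.74 and -0.61. By these medians H2A lay above H2B in WT mice and below it in KO mice, and the 2 classes were further apart in WT mice. Members of each class are near-identical copies, so the 11 pairs are not independent. They come from the H2A and H2B classes above, put together after the values had been seen. The pairs therefore restate the difference between those classes and are no separate evidence. CCAAT was present on either strand in the 250 bases before all 17 H2A genes and all 15 H2B genes with a RefSeq promoter, beside 33.8% of all 32851 promoters. It was present before 8 of 10 H3, 3 of 12 H4 and 6 of 6 H1 genes.

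**Figure D2:**
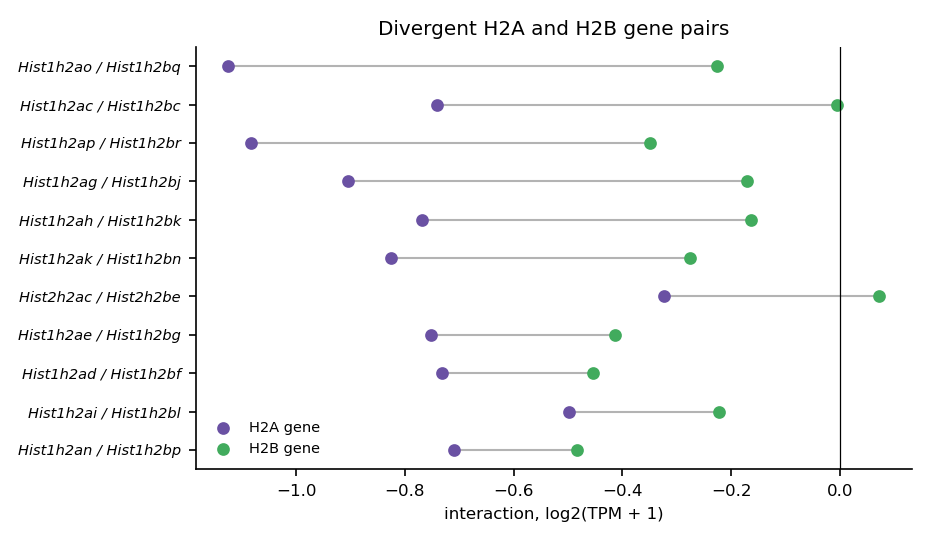
Interaction on the log2(TPM + 1) scale (horizontal axis) for the H2A gene (purple) and the H2B gene (green) of each of 11 divergent pairs, joined by a line. The H2A point lies to the left in every pair.

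Other replication genes had smaller negative interactions. All 15 genes of the replication and mitosis list were below 0 (65.8% of all genes), with a median of -0.24. Of the 15, 1 was past an unadjusted p of 0.05 and lower (3.03% of all genes). This was Mcm5, a subunit of the helicase that opens DNA at origins, at -0.68 ± 0.25 (unadjusted p = 0.0112). Mcm2 had -0.55, whereas Mki67, the common marker of cycling cells, had -0.02. In KO mice 12 of the 15 had all flight mice below all ground mice (18.4% of all genes did), and in WT mice 2 of 15 did (4.19% of all genes).

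Mknk2, a kinase downstream of MAP kinases that phosphorylates the translation factor eIF4E, had the sixth lowest unadjusted p (9.83e-05). It had 38.1 to 58.4 TPM in GC-WT mice (median 48.7), 27.3 to 59.4 in FL-WT mice (median 36.8), 18.6 to 37.2 in GC-KO mice (median 23.9) and 6.71 to 12.5 in FL-KO mice (median 7.34). All FL-KO mice were below all GC-KO mice, and all GC-KO mice were below all GC-WT mice. The interaction was -1.23 ± 0.27 (limma adjusted p = 0.203). It passed after quantile normalization (-1.02, limma adjusted p = 0.0582) and after scaling by median of ratios (-1.17, limma adjusted p = 0.0220).

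3 further transcripts were among the 10 lowest unadjusted p-values of genes averaging 5 TPM or more. Gm25360, annotated as a small nuclear RNA gene, had an interaction of -1.21 ± 0.28 (limma adjusted p = 0.234). Gm16867 was listed at 0 TPM in all 12 WT mice, with 26 to 38.7 TPM in GC-KO mice and 16.7 to 22.9 in FL-KO mice. Its neighbour on chromosome 14, Gm27177, had at most 0.03 TPM in any WT mouse, 15.7 to 38 in GC-KO mice and 6.86 to 18.3 in FL-KO mice. Their interactions of -0.72 and -1.19 (limma adjusted p = 0.138 and 0.188) are therefore the flight effect in KO mice alone.

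**Figure D3:**
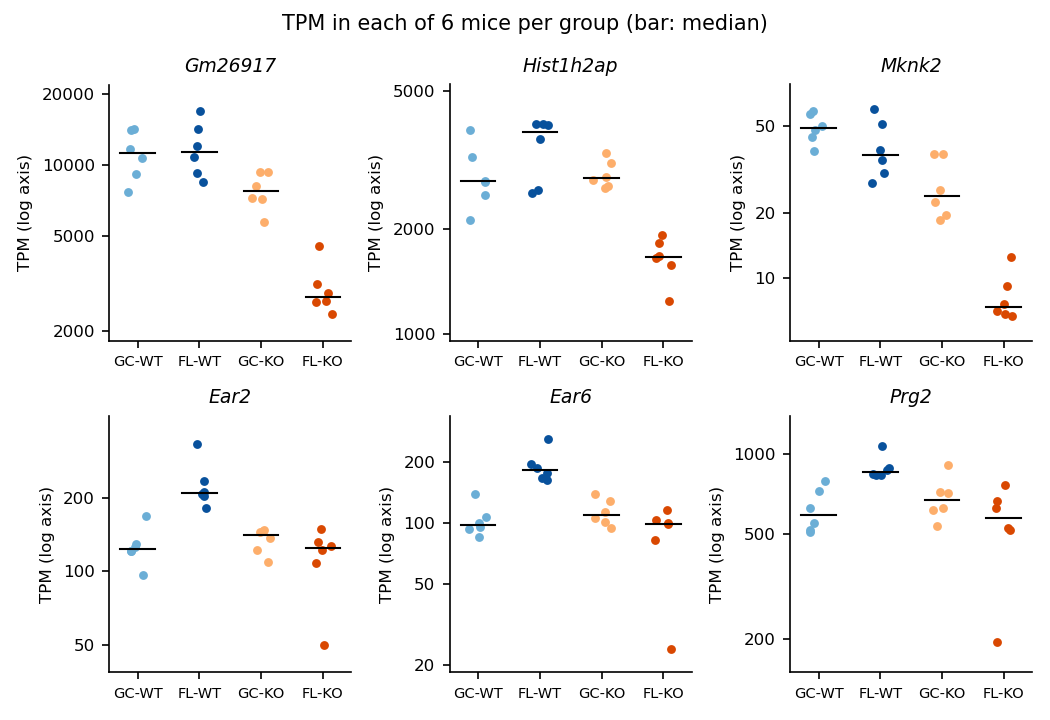
TPM on a log axis in each of 6 mice per group, with the group median as a bar, for Gm26917, Hist1h2ap, Mknk2, Ear2, Ear6 and Prg2. The 6 FL-KO mice lie below all others for the first 3, and the 6 FL-WT mice lie above all GC-WT mice for the last 3.

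The eosinophil ribonuclease genes had another layout, with FL-WT mice apart from the rest. Ear2 had 96.5 to 168 TPM in GC-WT mice (median 124), 181 to 331 in FL-WT mice (median 209), 109 to 147 in GC-KO mice (median 141) and 50.3 to 149 in FL-KO mice (median 124). All FL-WT mice were above all other mice. The flight effect was 0.83 in WT (limma adjusted p = 0.00300) and -0.29 in KO mice, and the interaction was -1.11 ± 0.27 (limma adjusted p = 0.277).

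Ear6 had 85.6 to 139 TPM in GC-WT mice (median 98.1), 162 to 258 in FL-WT mice (median 181), 94.5 to 138 in GC-KO mice (median 110) and 24 to 116 in FL-KO mice (median 99.1). Its interaction was -1.39 ± 0.34 and that of Ear1 -1.24 ± 0.35 (limma adjusted p = 0.303 and 0.572). Prg2, which encodes eosinophil major basic protein, had 507 to 794 TPM in GC-WT mice (median 591), 835 to 1076 in FL-WT mice (median 860), 534 to 912 in GC-KO mice (median 670) and 195 to 769 in FL-KO mice (median 577). Its interaction was -0.95 ± 0.30, beside -0.81 for its relative Prg3 and -0.85 for Epx, eosinophil peroxidase. None of these passed after adjustment.

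Genes whose 6 FL-WT mice were all above the 6 GC-WT mice were rare, at 12 of 12373 (0.097%). Ear1, Ear2, Ear6 and Prg2 were 4 of them. The others were Stfa1, Stfa2, Stfa3 and BC100530, mt-Atp6, Adora3, Acot1 and Smpd5. The 12 were looked up after their values were seen. All 12 had a negative interaction, from -1.39 to -0.21, as the choice of a high FL-WT group favours.

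The list of eosinophil, basophil and mast cell genes split by cell type. Of its 10 members 5, the eosinophil genes Ear1, Ear2, Prg2, Prg3 and Epx, were past an unadjusted p of 0.05 and lower (3.03% of all genes), and the list median was -0.61. The basophil and mast cell genes Mcpt8 (0.11), Ms4a2 (0.07), Cpa3 (0.01) and Fcer1a (-0.02) lay near 0, and Hdc, the histamine-making enzyme, had -0.42 (unadjusted p = 0.212). Of 5 eosinophil genes added after the values were seen, Ear6, Alox15 (-0.78) and Siglecf (-0.50) were past an unadjusted p of 0.05, and the receptors Ccr3 (-0.46) and Il5ra (-0.26) were not.

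FL-KO mouse 09 was the lowest of its group for the eosinophil granule genes, with 38.6 TPM of Ear1 where the other 5 had 133 to 177. Without it the interactions were smaller and their errors too. That of Ear6 became -1.05 and passed the test (limma adjusted p = 0.0560), that of Ear2 -0.90 (adjusted p = 0.181), that of Ear1 -0.90 (adjusted p = 0.209) and that of Prg2 -0.68 (adjusted p = 0.752). Relative to the median gene, the list median stayed between -0.55 and -0.48 under 5 scalings.

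Red cell membrane genes had strong flight effects of similar size in both genotypes. Among 17 red cell membrane and skeleton genes, all 17 had FL-KO mice wholly below GC-KO mice (18.4% of all genes) and 14 had FL-WT mice wholly below GC-WT mice (4.19%). The median flight effect was -1.16 in WT and -1.21 in KO mice, and the median interaction -0.05, as for all genes. Ank1, the ankyrin that anchors the skeleton to the membrane, had an interaction of -0.04 (95% interval -0.63 to 0.55), whose sign changed with the scaling, and Add1 had -0.39.

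Slc4a1, which encodes the band 3 anion exchanger, had the lowest interaction in this list. It had 293 to 596 TPM in GC-WT mice (median 418), 138 to 252 in FL-WT mice (median 190), 210 to 522 in GC-KO mice (median 307) and 73.0 to 121 in FL-KO mice (median 86.6). Flight mice were wholly below ground mice in both genotypes, and FL-KO mice wholly below FL-WT mice. Its interaction was -0.63 ± 0.28 (limma, unadjusted p = 0.0328, adjusted p = 1). Leaving out 1 mouse at a time gave unadjusted limma p-values from 0.0111 (without GC-KO mouse 04) to 0.0748 (without GC-KO mouse 11).

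Erythroid transcription factors had mostly negative interactions, with 12 of 13 below 0 (65.8% of all genes) and a median of -0.28. Of the 13, 2 were past an unadjusted p of 0.05 and lower (3.03% of all genes). Zfpm1, the GATA1 cofactor FOG1, had 24 to 53.6 TPM in GC-WT mice (median 36.4), 9.58 to 25.5 in FL-WT mice (median 15), 11.9 to 25.7 in GC-KO mice (median 16.4) and 3.15 to 5.88 in FL-KO mice (median 3.66). Its interaction was -0.76 ± 0.30 and that of Klf1, a master activator of globin and red cell genes, -0.61 ± 0.27 (unadjusted p = 0.0194 and 0.0300). Gata1 itself had -0.32 (95% interval -0.81 to 0.17), and Sox6 was alone above 0, at 0.21.

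Haem and iron genes gave smaller values. All 8 haem synthesis enzymes were below 0, with a median of -0.17 and none past an unadjusted p of 0.05, among them Cpox (-0.30), Alas2 (-0.29) and Ppox (-0.24). All 8 iron and amino acid uptake genes were below 0 (median -0.14), among them Slc7a5 (-0.41), Steap3 (-0.30) and the glycine transporter Slc6a9 (-0.14, above 0 without the small RNAs or with GC content and length trends removed). The 4 globin genes measured had a median of -0.21, led by Hbb-bt (-0.24) and Hbb-bs (-0.23).

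For genes that flight lowered strongly, the sign of an interaction depended on the scale. On log2(TPM + 1) it compares ratios where a gene is well above 1 TPM, and less so in low genes, and on TPM it compares amounts. For 2046 genes (16.5%) the 2 signs differed, and 1801 of these were lower after flight in both genotypes with a negative interaction on log2(TPM + 1) and a positive one on TPM. On the TPM scale Slc4a1 had 9.85, Zfpm1 7.22, Slc6a9 3.40 and Cpox 2.07, since KO mice started from a lower level. Among the 375 genes with an unadjusted p below 0.05 and a negative interaction, 14 changed sign. Gm26917, Hist1h2ap, Mknk2 and the Ear genes did not.

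**Figure D4:**
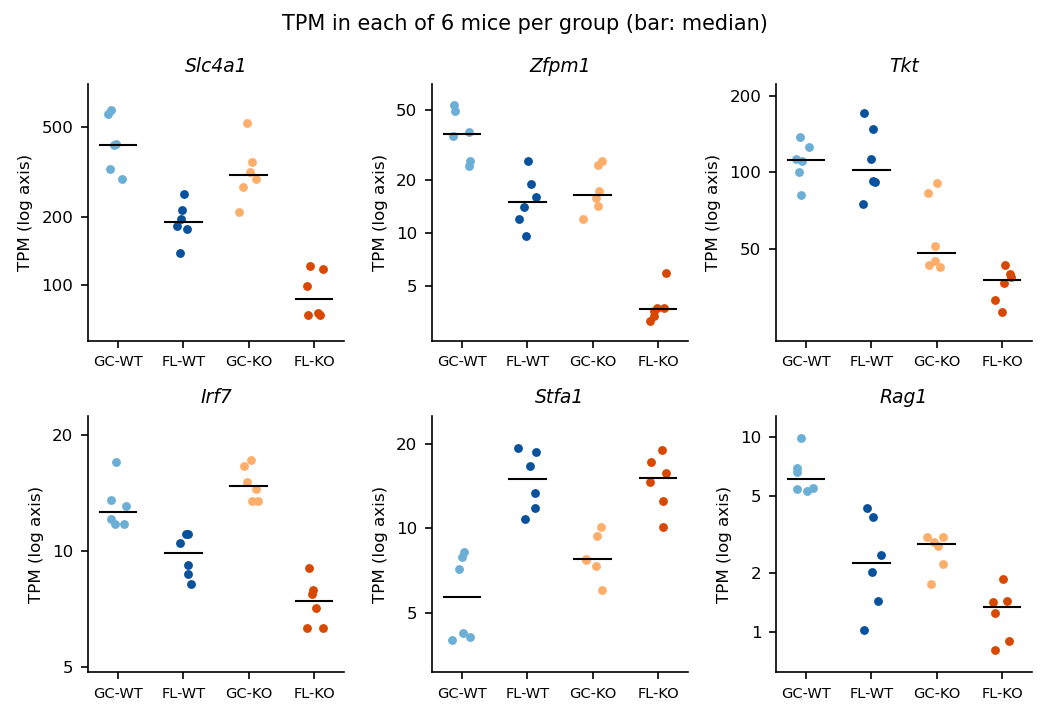
TPM on a log axis in each of 6 mice per group, with the group median as a bar, for Slc4a1, Zfpm1, Tkt, Irf7, Stfa1 and Rag1. FL-KO mice are the lowest group for the first 4 genes, both flight groups are high for Stfa1, and for Rag1 the FL-WT mice come down toward the KO level.

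No target of Nrf2 itself passed the test of the interaction. The list median was -0.16 in TPM as deposited, and 0.01 with quantile normalization or without the small RNAs. Read against the median of all genes it was -0.105, and -0.004 with quantile normalization. Of 27 tested targets 22 were below 0 (65.8% of all genes), and 1 was past an unadjusted p of 0.05 and lower (3.03% of all genes). This was Tkt, transketolase of the pentose phosphate pathway, with 81.2 to 137 TPM in GC-WT mice (median 111), 74.7 to 170 in FL-WT mice (median 102), 42.3 to 90.3 in GC-KO mice (median 47.9) and 28.1 to 42.9 in FL-KO mice (median 37.6). Its interaction was -0.64 ± 0.28 (unadjusted p = 0.0306). G6pdx (-0.51) and Pgd (-0.49), of the same NADPH-making pathway, were not past that threshold. By unadjusted p, Prdx1 came after Tkt.

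Other targets of Nrf2 had interactions of either sign. The 2 subunits of the first glutathione-making enzyme, Gclm and Gclc, had -0.23 (95% interval -0.70 to 0.23) and -0.06 (-0.53 to 0.41), the latter above 0 with quantile normalization or without the small RNAs. The quinone reductase Nqo1 had 0.04 (-0.32 to 0.41) and the sulfiredoxin Srxn1 0.20 (-0.09 to 0.50). Srxn1 had 1.46 to 2.78 TPM in GC-WT mice (median 1.98), 1.14 to 1.61 in FL-WT mice (median 1.45), 0.630 to 0.800 in GC-KO mice (median 0.730) and 0.410 to 0.770 in FL-KO mice (median 0.510). KO mice were wholly below WT mice in both settings, and the flight effect was -0.36 in WT and -0.16 in KO mice. Prdx1, a peroxiredoxin, had -0.33 and catalase, Cat, 0.35, at the 2 ends of the antioxidant enzymes. All 7 regulators tested were below 0 (65.8% of all genes), with a median of -0.22. They included Nfe2l2, the knocked-out gene itself, which was lowest at -0.32, besides Keap1 (-0.29) and Mafg (-0.29).

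A narrow form of the antioxidant response element, TGANTCAGC, was searched on both strands of the 250 bases before each RefSeq start. It was present in 335 of 32851 promoters (1.02%) and in those of 4 of 23 Nrf2 targets with a promoter, Gstp1, Osgin1, Prdx1 and Srxn1. The match before Srxn1 is shown in capitals, at chr2:152105459-152105518 on the plus strand (GRCm38.p6, RefSeq). Among 8609 tested genes with a promoter, the 96 with a match had a median interaction of -0.11 and the rest -0.07. Of the 96, 3 were past an unadjusted p of 0.05 and lower (3.03% of all genes) and 0 higher (0.428% of all genes). These counts were close to the shares over all genes. Distal elements lie outside this window, and other forms of the element were not searched.
Srxn1: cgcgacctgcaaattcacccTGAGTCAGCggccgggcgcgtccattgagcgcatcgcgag

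Genes of granulocytes had negative interactions that did not pass the test. All 11 genes of secondary and tertiary granules were below 0 (median -0.31), led by Cd177 (-1.60 ± 0.72, unadjusted p = 0.0355) and the gelatinase Mmp9 (-0.93 ± 0.47, unadjusted p = 0.0579). Cd177, a neutrophil surface protein, varied widely, with 8.66 to 153 TPM in GC-WT mice (median 60), 38.1 to 156 in FL-WT mice (median 70.6), 20.5 to 69.9 in GC-KO mice (median 32.2) and 16.2 to 25.1 in FL-KO mice (median 20.7). FL-KO mice were wholly below FL-WT mice, and the other pairs of groups overlapped. The interaction of Cd177 was -1.175 without GC-WT mouse 05 and -1.151 without GC-WT mouse 10 (limma, unadjusted p = 0.0844 and 0.0826).

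The earlier and later granulocyte genes gave smaller values. All 8 primary granule genes were below 0 (median -0.21), among them Ctsg (-0.37), Cebpe (-0.39) and Mpo (-0.67). All 11 mature neutrophil genes were below 0 (median -0.18), with Fpr2, a receptor for formylated peptides, at -0.59 ± 0.21 (unadjusted p = 0.00858) and S100a8 at -0.39 (0.07 with quantile normalization). All 6 phagocyte oxidase genes were below 0 (median -0.26), with Rac2 at -0.44. The homing and integrin list had all 10 below 0 and a median of -0.39, with Selplg (-0.46) and Itgb1 (-0.36). None of these 10 was past an unadjusted p of 0.05.

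Stefin A genes, cysteine protease inhibitors abundant in neutrophils, had positive flight effects in both genotypes, smaller in KO mice. The median flight effect over 6 genes was 1.11 in WT and 0.67 in KO mice. Stfa1 had 3.98 to 8.23 TPM in GC-WT mice (median 5.69), 10.8 to 19.4 in FL-WT mice (median 15), 6.03 to 10.1 in GC-KO mice (median 7.75) and 10.1 to 19.0 in FL-KO mice (median 15.2). The FL-WT mice were all above the GC-WT mice, and the 2 flight groups overlapped. Its interaction was -0.44 ± 0.26, beside -0.50 for Stfa2, -0.50 for BC100530 and -0.37 for Stfa3, of which Stfa2 alone was past an unadjusted p of 0.05 (limma, 0.0447). These are close copies in a cluster on chromosome 16.

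B cell progenitor genes pointed the other way. Their median interaction was 0.11, with 11 of 18 above 0 and none past an unadjusted p of 0.05. Rag1, which cuts DNA for immunoglobulin gene assembly, had 5.27 to 9.84 TPM in GC-WT mice (median 6.05), 1.03 to 4.35 in FL-WT mice (median 2.27), 1.77 to 3.08 in GC-KO mice (median 2.83) and 0.810 to 1.87 in FL-KO mice (median 1.34). GC-KO mice were already wholly below GC-WT mice. The interaction was 0.49 ± 0.27 (unadjusted p = 0.0806), beside 0.35 for Il7r, 0.32 for Pax5 and 0.25 for Ebf1. The repressor Bach2 had 0.34, and 0.217 with a pseudocount of 0.1, while its mean TPM after flight was 42.7% of ground in WT and 43.6% in KO mice. Tcf3, which encodes the E2A proteins, went against these with -0.49.

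Among genes averaging 5 TPM or more, the 10 positive interactions with the lowest unadjusted p-values lay between 0.30 and 0.52, apart from that of Igkv9-120. They were led by the RNase P RNA Rpph1 (0.48), Inhba (0.47), Ifi209 (0.43) and the kappa variable gene Igkv9-120 (1.06), with unadjusted limma p-values from 0.0245 to 0.0403. After them came Hmgb1-ps8 (0.52), Tnfrsf13c, the BAFF receptor of B cells (0.47), the stress factor Ddit3 (0.31), Il7r (0.35), Idnk (0.30) and Gm10182 (0.34), with unadjusted p-values from 0.0505 to 0.1. All had limma adjusted p-values of 1.

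Interferon-stimulated genes included 3 of 14 past an unadjusted p of 0.05 and lower (3.03% of all genes), with a list median of -0.12. Irf7, the factor that amplifies interferon production, had 11.8 to 17.0 TPM in GC-WT mice (median 12.6), 8.24 to 11.1 in FL-WT mice (median 9.87), 13.5 to 17.2 in GC-KO mice (median 14.8) and 6.31 to 9.06 in FL-KO mice (median 7.42). Flight mice were wholly below ground mice in both genotypes, and the interaction was -0.55 ± 0.15 (limma adjusted p = 0.584). Ifitm3, which blocks virus entry, had -0.68 and Usp18, which dampens interferon signalling, -0.40. The classical members Isg15 (-0.08), Mx1 (-0.03) and Rsad2 (-0.07) lay near 0.

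Mitochondrially encoded genes split in a similar way, with 3 of 13 past an unadjusted p of 0.05 and lower (3.03% of all genes) and a median of -0.18. The 3 were mt-Nd3 (-0.85 ± 0.22, limma adjusted p = 0.401), mt-Co3 (-0.71) and mt-Atp6 (-0.63), which lie next to each other on the mitochondrial genome. mt-Atp6 had 293 to 528 TPM in GC-WT mice (median 402), 593 to 830 in FL-WT mice (median 790), 449 to 689 in GC-KO mice (median 580) and 591 to 798 in FL-KO mice (median 715). The FL-WT mice were all above the GC-WT mice, and the 2 KO groups overlapped. mt-Nd5 (0.00), mt-Cytb (0.02) and mt-Nd4 (0.08) lay near 0.

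**Figure D5:**
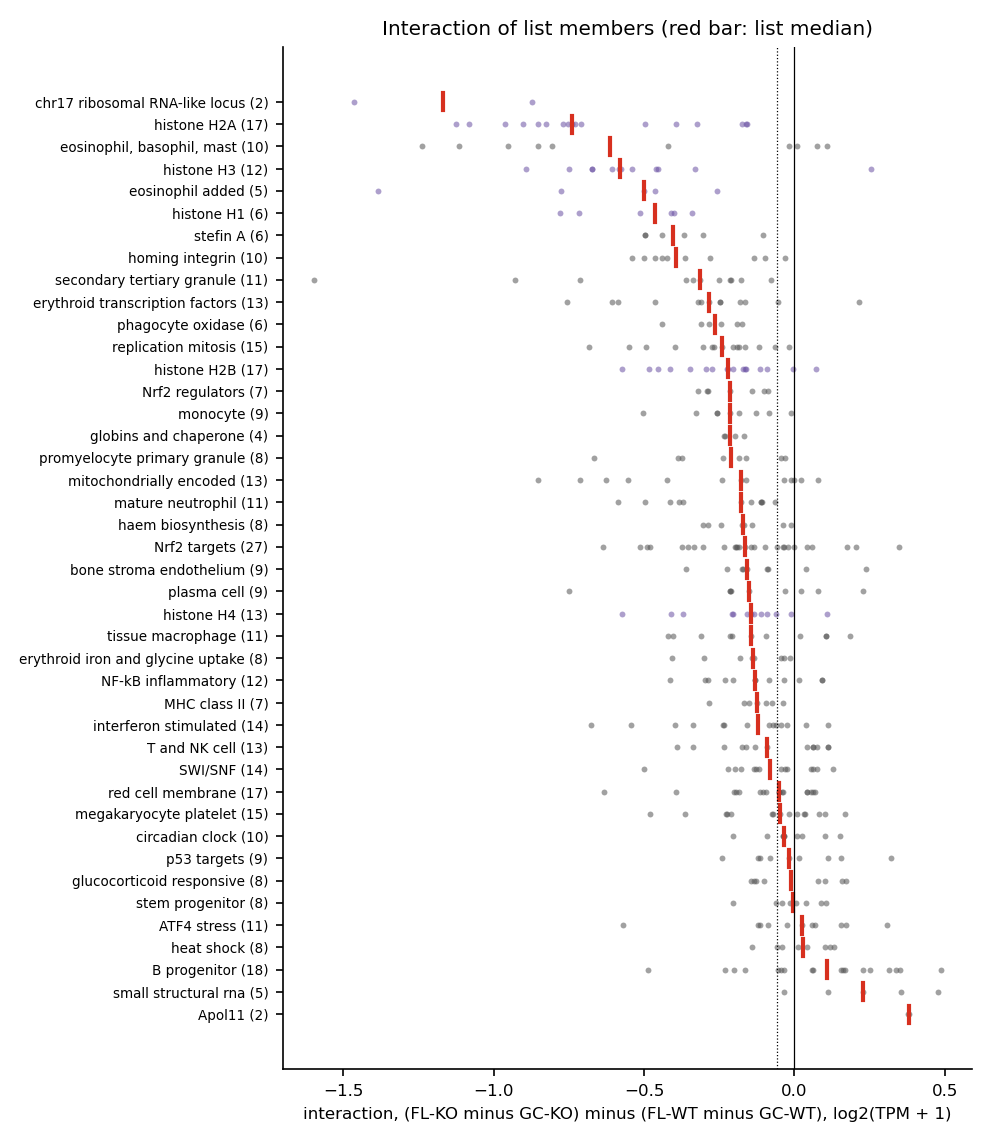
Interaction on the log2(TPM + 1) scale (horizontal axis) of each tested member of each gene list (rows, number tested in brackets), with the list median as a red bar. Purple points are lists added after the values were seen, the solid line marks 0 and the dotted line the median of all genes, -0.06.

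The remaining lists of cell types had medians from -0.22 to -0.01. All 9 monocyte genes and all 7 MHC class II genes were below 0. Monocyte genes had a median of -0.22 (Ly6c2 -0.33, Csf1r -0.50), tissue macrophage genes -0.14 (C1qb -0.42, C1qc -0.40) and MHC class II genes -0.12 (Cd74 -0.28, H2-Ab1 -0.17). Plasma cell genes had -0.15 (Igha -0.75, Xbp1 -0.21), T and NK cell genes -0.09 (Il2rb -0.39, Cd3e -0.34), megakaryocyte and platelet genes -0.05 (Gp1bb -0.48, Ppbp -0.37) and stem and progenitor genes -0.01 (Gata2 -0.21, Sox4 0.10). No member of these 7 lists was past an unadjusted p of 0.05.

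Stress, chromatin and stroma lists had medians from -0.16 to 0.03. NF-kB genes had a median of -0.13 (Relb -0.29, Tnf -0.30), p53 targets -0.02 (Mdm2 0.32, Bbc3 -0.24), heat shock genes 0.03 (Bag3 -0.14, Dnajb1 0.13), clock genes -0.04 (Clock 0.15, Cry1 -0.20), glucocorticoid-responsive genes -0.01 (Zbtb16 -0.13, Sgk1 -0.13) and stroma and endothelium genes -0.16 (Adipoq -0.23, Cxcl12 -0.36). The ATF4 list had 0.02 with Phgdh, the first enzyme of serine synthesis, at -0.57 (unadjusted p = 0.0214). The SWI/SNF list had -0.08 with Smarcd2 at -0.50 (unadjusted p = 0.0484), Actl6a at -0.18 and the ATPase Smarca4 at -0.02 (95% interval -0.67 to 0.62), which was at or above 0 under the 4 other scalings. The 2 Apol11 genes, Apol11a and Apol11b, both had 0.38, with flight effects of -1.34 and -1.33 in WT and -0.97 and -0.95 in KO mice, and were negative on the TPM scale (-0.303 and -2.24). Of the 15 genes that the study names for bone marrow, which were picked from these libraries and are no independent evidence, 11 were below 0 (65.8% of all genes), 3 were past an unadjusted p of 0.05 and lower (3.03%) and the median was -0.14. The small structural RNAs had a median of 0.23, with Rn7s1 at 0.35.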

How the data were processed

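Bone marrow RNA of 24 mice, 6 per group, was analysed as 1 table of gene values. The authors aligned reads with STAR 2.6.1 to mm10 and deposited TPM made with RSEM 1.3.1, in which each library sums to the same total. No counts were used here and the depth is unknown, so no counting interval was given. Gene positions and types came from GENCODE M21.

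Genes above 1 TPM in at least 1 library were tested on log2(TPM + 1) with limma 3.58.1 (R 4.3.3) over the 4 group means, with the interaction as a contrast and Benjamini-Hochberg adjustment over all 12373 genes. A call needed an adjusted p below 0.1 and a 2-fold interaction. The fit was tested on simulated data. Fold changes on this scale understate those of low genes. Shares of TPM were compared by an exact permutation test of rank sums (scipy 1.17.1).

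Genes were named if called, if among the 10 lowest unadjusted p-values in either direction at a mean of at least 5 TPM, if named by the study for bone marrow, or if among the 2 lowest p-values of a list, with other list members where their role is described. The comparison and all 35 lists were chosen with earlier results of these data known. A further 7 lists (5 histone classes, 5 eosinophil genes, the chromosome 17 locus) were added after seeing the values. Alternatives changed the pseudocount, filter, scaling, model, threshold and replicate block, and left out each mouse in turn. Figures were drawn with matplotlib 3.10.9.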

Additional observations from a re-analysis of the deposited data

Results flagged for a closer look

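The flight effect differed between the genotypes by the interaction test for Gm26917 (-1.46) and Hist1h2ap (-1.08), whose values are given above.

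Of 396 groups of 6 mice checked among the named genes, 23 in 22 genes held 1 mouse far from the other 5, where chance gives about 1 in 20. In FL-KO mice these were mouse 11 for Gm26917 (4570 TPM), Zfpm1 (5.88 TPM) and Gata2 (1.07 TPM), mouse 09 for Ear1 (38.6 TPM) and Cxcl12 (44.7 TPM), mouse 02 for Keap1 (1.77 TPM) and Phgdh (4.21 TPM), and mouse 01 for Dnajb1 (13.2 TPM). In FL-WT mice they were mouse 10 for Ear2 (331 TPM) and Stfa2 (3.74 TPM), mouse 08 for Igha (35.0 TPM), mouse 06 for mt-Atp6 (593 TPM) and mouse 07 for Gm27177 (0.03 TPM). In GC-WT mice they were mouse 08 for Apol11b (99.7 TPM), Apol11a (10.4 TPM) and Gm27177 (0.01 TPM), mouse 07 for Rag1 (9.84 TPM), mouse 03 for Ctsg (76.8 TPM), mouse 06 for Irf7 (17.0 TPM) and mouse 10 for Selplg (58.6 TPM). In GC-KO mice they were mouse 04 for Igkv9-120 (26.2 TPM) and mouse 11 for Gclm (62.4 TPM) and Fpr2 (95.1 TPM). Without FL-KO mouse 11 the interaction of Gm26917 had a limma adjusted p of 0.00687.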

How the results depend on the processing

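The 2 genes called lower became 0 with a pseudocount of 0.1, on untransformed TPM, without the filter on low values, without the 5 small structural RNAs or in a linear model without moderation. There was 1 (Mknk2) with quantile normalization, 1 (Gm26917) at an adjusted p below 0.05, and 4 (Ear2, Gm25360, Gm26917, Gm27177) with 1 higher (Ighv1-84) when GC content and length trends were removed. With median-of-ratios scaling Gm26917 and Mknk2 were called and Hist1h2ap, at -0.997, fell short of 2-fold. The causes were not tested. Leaving out 1 mouse gave 0 to 4 called lower and 0 to 1 higher, and 216 (without FL-WT mouse 07) to 821 (without FL-WT mouse 05) genes lower at an unadjusted p below 0.05, with 36 to 95 higher.

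Mouse numbers are shared by flight and ground mice of a genotype, but nothing in the labels ties them, and the deviations of same-numbered mice correlated from -0.026 to 0.273. With the number as a replicate block, 9 genes were lower and 1 (Ighv1-84) higher.

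Signs turned as follows. On untransformed TPM, the interactions were Nfe2l2 0.795, Slc6a9 3.40, Ank1 8.39, Cpox 2.07, Slc4a1 9.85, Zfpm1 7.22, Smarca4 5.36, Gclc 1.32, Add1 0.72, Slc7a5 4.01, Steap3 0.82, Tcf3 3.46, Gp1bb 0.04, Apol11b -2.24 and Apol11a -0.303. Without the small RNAs they were Slc6a9 0.019, Ank1 0.147, Smarca4 0.116, Gclc 0.116, H2-Ab1 0.031 and Sgk1 0.038. With GC content and length trends removed they were Slc6a9 0.074, Ank1 0.122, Smarca4 0.134, H2-Ab1 0.013, Gata2 0.027, Bbc3 0.056 and Bag3 0.047. Median-of-ratios scaling gave Ank1 0.024 and Smarca4 0.0. Quantile normalization gave Ank1 0.174, Smarca4 0.104, Gclc 0.047, S100a8 0.074, Cd74 0.087 and H2-Ab1 0.056, and a relative H4 median of 0.159. A pseudocount of 0.1 gave Nqo1 -0.041. Leaving out 1 mouse gave Ank1 -0.153 to 0.093, Smarca4 -0.138 to 0.146, Gclc -0.162 to 0.018, Nqo1 -0.015 to 0.117 and Sox4 -0.009 to 0.207.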
